A study of Mus musculus with 4 samples.

Results

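Vascular smooth muscle cells of transplanted mouse hearts were picked out of single-cell RNA-seq data by their UMI counts (unique molecular identifiers, each standing for a captured transcript). A cell was taken as a member when it had over 200 detected genes and under 20% of its UMIs from mitochondrial genes, at least 20 UMIs of *Acta2*, 3 of *Myh11* and 10 of *Tagln*, and 0 UMIs of the leukocyte gene *Ptprc* and the pericyte gene *Kcnj8*. This gave 690 cells out of 44626 that passed the limits on genes and mitochondrial UMIs, and out of 53824 deposited cells. The hearts came from 4 heterotopic transplantations into the abdomen of C57BL/6J recipients. In the 2 allogeneic grafts the donor strain was Balb/C, and in the 2 syngeneic grafts it was C57BL/6J, the strain of the recipient. All 4 were taken on day 5 after transplantation, without any named drug treatment, and the whole graft was dissociated before 3′ libraries were made on the 10x platform, so recipient cells that had entered a graft could be captured together with donor cells. The deposited matrix pools the grafts. Barcode suffixes 1 to 4 divide its cells into 4 libraries, and no file or text ties a suffix to a graft. The libraries are therefore samples of unknown group, each value is given per library without a test, and allogeneic grafts were not compared with syngeneic grafts.

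Vascular smooth muscle cells form the contractile wall of arteries and veins and set the diameter of the vessel. A rise in calcium activates myosin light chain kinase, which phosphorylates the regulatory light chain of myosin and lets it pull on filaments of smooth muscle actin, while myosin phosphatase reverses the step. The genes of this apparatus are switched on by serum response factor with its partner myocardin, which bind a DNA element called the CArG box. In injured vessels, transplant vasculopathy among them, the cells are known to lose contractile proteins, divide and lay down matrix. In the heart they lie beside pericytes, which wrap capillaries and share many of the same genes.

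The members were spread unevenly over the libraries. Libraries 1, 2 and 3 held 232, 255 and 198 of them, which were 2.25% (95% interval 1.97 to 2.55), 1.94% (1.71 to 2.19) and 2.01% (1.74 to 2.31) of the kept cells. Library 4 held 5, or 0.0442% (0.0144 to 0.103), and stood far below the other libraries. In that library 64.7% of the kept cells had at least 3 UMIs of *Ptprc*, against 5.19, 7.14 and 9.61% in libraries 1 to 3. Fewer smooth muscle cells and more cells of other types cannot be told apart from a share. Intervals are exact, Clopper-Pearson for shares and Poisson for levels, and cover counting error only. Beside a count of 0 the limit given is 3 cells over the number of cells. Over all libraries the members made up 1.55% of the kept cells (1.43 to 1.66), and 0.77% with mitochondrial UMIs held under 10%.

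**Figure D1:**
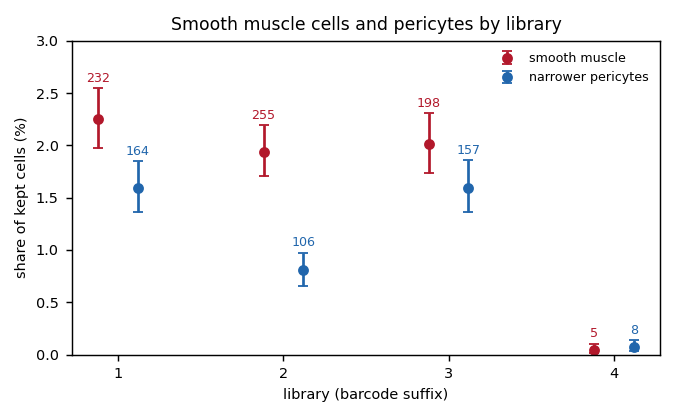
Share of kept cells (percent, vertical axis) that were smooth muscle cells or narrower pericytes in each library (barcode suffix, horizontal axis), with exact 95% intervals and the number of cells above each point. Smooth muscle cells were 1.94 to 2.25% in libraries 1 to 3 and 0.0442% in library 4, where 5 cells were found.

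The members were deeply covered. Their median was 12720.5 UMIs and 3452 genes, against 7258.5 UMIs over all kept cells. By library the medians were 10113, 14379, 15549 and 25414 UMIs. Mitochondrial genes gave a median of 11.0% of a member's UMIs and 5.6% over all kept cells. Of the member barcodes, 5 were also present in another library, out of 308 barcodes found in more than 1 library, and no barcode was shared by 2 members.

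Smooth muscle genes outside the rule were checked first. *Mylk*, the myosin light chain kinase, had a UMI in 99.9% of the members, at their median depth of 12720.5 UMIs, against 3.25% of leukocytes at a median of 14117 UMIs. *Lmod1*, a leiomodin that starts actin filaments, had a UMI in 96.8% of members and 0.822% of leukocytes, and *Cnn1*, calponin, in 52.5% and 0.504%. *Myocd*, the gene of myocardin, was found in 52.5% of members, 0.69% of pericytes by the narrower rule given below (median 4577 UMIs) and 0.144% of leukocytes. With every cell thinned to 2000 UMIs, which left out 3 members, the shares of members with a UMI were 90.5% for *Mylk*, 64.5% for *Lmod1*, 27.8% for *Cnn1* and 12.5% for *Myocd*. In the narrower pericytes the thinned share for *Myocd* was 0.495%.

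Nearly all members held some transcripts of other cell types, and part of them passed a limit set on marker sums. At least 3 UMIs summed over an endothelial, a fibroblast or a leukocyte marker set were found in 200 of the 690 cells (29.0%), which are called marker doublets here. Their median depth was 18979.5 UMIs, against 11183.5 in the other 490. Endothelial markers accounted for 160 of them (23.2% of the members), fibroblast markers for 30 and leukocyte markers for 30. The marker doublets made up 48, 87, 62 and 3 of the members of libraries 1 to 4. The whole list of 10 endothelial markers held 0.348, 1.27, 0.304 and 0.0283% of member UMIs in libraries 1 to 4, and 0.0758, 0.374, 0.0760 and 0.00388% without the marker doublets. In endothelial cells of the same libraries (at least 2 UMIs of *Cdh5* and of *Pecam1*) it held 2.75, 4.17, 2.69 and 1.69%. *Fabp4*, the fatty acid binding protein of capillaries and the most abundant gene of that list, stood at 2031, 9468, 1581 and 156 CPM in the members. Library 2 was thus the highest by a wide margin. A UMI of *Fabp4* was found in 96.4% of members, and in 95.3% of those that were not marker doublets. CPM is a gene's UMIs per 1000000 non-mitochondrial UMIs of the same cells, without correction for gene length, so that levels are compared between cells and not between genes.

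The genes that chose the members are given as a description. *Acta2*, smooth muscle alpha-actin (chr19:34241090-34255590, minus strand), stood at 10694, 13565, 14056 and 5577 CPM in libraries 1 to 4. *Myh11*, the smooth muscle myosin heavy chain (chr16:14194535-14291372, minus strand), had 4347, 1648, 3426 and 1426 CPM. *Tagln*, the actin-binding protein transgelin (chr9:45929619-45936058, minus strand), had 9055, 8078, 12497 and 5304 CPM. Positions are those of GENCODE M21 on GRCm38. By their mean over libraries 1 to 3, with mitochondrial and ribosomal protein genes left out, *Acta2* and *Tagln* followed *Malat1* as the most abundant transcripts, and *Actb*, *Crip1*, *Tpt1*, *Tpm2*, *Myl6*, *Eef1a1* and *Igfbp7* came next. Members just inside the *Acta2* limit (20 to 24 UMIs, 24 cells) had *Mylk* at 804 CPM and *Myl9* at 690.4 CPM, and cells just outside it (15 to 19 UMIs, 21 cells) had 652 and 535 CPM. At 3 UMIs of *Myh11* (13 cells) *Mylk* stood at 614 CPM and at 2 UMIs (9 cells) at 305 CPM, while for 10 to 12 and 7 to 9 UMIs of *Tagln* (8 and 9 cells) it was 619 and 574 CPM. Other genes went the other way. At the *Tagln* limit *Myl9* had 356.4 CPM inside and 776.1 CPM outside, and *Cnn1* 8.485 and 31.05 CPM. At the *Acta2* limit *Cnn1* had 29.47 CPM inside and 42.78 CPM outside. A further 112 cells met every limit except that on *Kcnj8*. Their median depth was 17963 UMIs, with *Mylk* at 924 CPM and *Rgs5* at 6548 CPM. Another 46 cells failed only on *Ptprc*.

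The members were set beside pericytes and fibroblasts of the same libraries to show where their genes lie. Pericytes were cells with at least 2 UMIs of *Kcnj8*, 0 of *Ptprc* and *Cdh5* and under 20 of *Acta2* (566 cells, median 4968.5 UMIs). They turned out to hold the fibroblast gene *Dcn* at 11249, 3820 and 6560 CPM in libraries 1 to 3. A narrower group was therefore added after these values were seen. It asked in addition for at least 2 UMIs of *Abcc9*, 0 of *Pdgfra*, under 3 of *Dcn* and under 3 of *Cdh5*, *Pecam1* and *Kdr* together, without the separate limit on *Cdh5*, and held 435 cells (164, 106, 157 and 8 by library, median 4577 UMIs) with *Dcn* at 239, 77.4 and 141 CPM. Fibroblasts were 3173 cells with at least 10 UMIs of *Dcn*, 3 of *Col1a1* and 1 of *Pdgfra*, and none of *Ptprc* and *Cdh5*. They too had under 20 UMIs of *Acta2*, so fibroblasts rich in that gene were left out. A gene is called higher or lower when its fold, with 10 CPM added to both sides, was at least 2 in each of libraries 1 to 3. Genes entered at a mean of 20 CPM in either group, and library 4 had too few cells. Because *Acta2*, *Kcnj8*, *Dcn*, *Col1a1* and the other genes named chose the groups, these folds are descriptions and were not tested.

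Of 7385 genes, 334 (4.52%) were higher in the members than in pericytes and 272 (3.68%) were lower. The lower count was 411 without marker doublets, 457 without library 2 and 626 with the cells pooled over libraries, and the higher count 526 when pooled. Against the narrower pericytes 314 of 7491 (4.19%) were higher and 258 (3.44%) lower, and against fibroblasts 645 of 7220 (8.93%) were higher and 330 (4.57%) lower. The counts given below for gene lists are to be read beside these shares. The lower count against fibroblasts was 573 without library 2 and 723 with the cells pooled. Outside the rule, *Sorbs2* led the genes higher than in pericytes, with at least 23.9-fold in every library and 916, 399 and 715 CPM in the members against 8.19, 7.08 and 14.3 CPM. *Lmod1*, *Mustn1*, *Myl9*, *Cnn1*, *Csrp1*, *Perp* and *Pln* followed, between 23.7-fold and 11.9-fold. *Cdh5* was also among them, but its absence from these pericytes was a condition of their choice. Endothelial markers moved with these counts. Of 10 listed, 8 were higher than in pericytes, 6 than in the narrower pericytes and 10 than in fibroblasts, while against the narrower pericytes 0 were higher and 1 lower with the marker doublets left out. With the narrower pericytes the leading genes also held *Palld*, the actin-bundling palladin, *Itih4* (274, 248.7 and 461 CPM against 1.70, 4.94 and 4.75 CPM) and *Clu*, the secreted chaperone clusterin (306, 1333 and 757 CPM against 13.6, 13.2 and 33.2 CPM).

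Genes of the contractile apparatus were mostly higher in the members. Of 37 contractile genes outside the rule, 29 were higher than in pericytes and 0 lower, with a median log2 fold of 2.20 where the median of all genes entered was -0.08. Against the narrower pericytes 25 were higher (median 2.09, all genes -0.17), and 27 with the marker doublets also left out (2.39 and -0.24), where 4.01% of all genes entered were higher and 5.49% lower. Against fibroblasts 33 were higher (3.195 and 0.10). The list was drawn up from known smooth muscle genes, of which the rule genes are the best known, so these counts describe the members and do not test their identity.

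*Myl9* (chr2:156775420-156781658, plus strand), the regulatory light chain that the kinase phosphorylates, had 4024, 2102, 4381 and 869 CPM in libraries 1 to 4, against 222, 135 and 269 CPM in the narrower pericytes and 39.0, 6.78 and 44.3 CPM in the fibroblasts of libraries 1 to 3. Each member library lay above every pericyte and fibroblast library. *Mylk* (chr16:34745210-35002420, plus strand) had 1956, 1698, 1663 and 1162 CPM against 399, 272 and 444 CPM in the narrower pericytes. *Mylk* varied less among libraries 1 to 3 than *Myl9*, which, like *Myh11*, was lowest of them in library 2. *Cnn1* (chr9:22099216-22109630, plus strand) had 332, 209, 488 and 293 CPM against 3.41, 4.94 and 7.12 CPM, and *Lmod1* (chr1:135324807-135368065, plus strand) 816, 642, 674 and 391 CPM against 30.7, 13.2 and 33.2 CPM.

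*Tpm2*, beta-tropomyosin, had 6054, 4113, 5185 and 3253 CPM in the members and 486, 544 and 670 CPM in the narrower pericytes. *Csrp1*, a LIM protein of smooth muscle, had 1196, 1389, 1415 and 1201 CPM against 46.0, 51.1 and 45.1 CPM. *Crip1*, another small LIM protein, reached 5228, 4195, 7795 and 4630 CPM against 1064, 797 and 1879 CPM. *Actg2*, the actin best known from gut muscle, had 171, 159, 366 and 488 CPM and at most 4.94 CPM in the narrower pericytes. *Sncg*, gamma-synuclein, had 1399, 1040, 995 and 723 CPM against 426, 214 and 372 CPM in those pericytes and no more than 3.22 CPM in fibroblasts of libraries 1 to 3.

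Genes that regulate contraction were called in part. *Ppp1r12b* and *Ppp1r12a*, targeting subunits of myosin phosphatase, had 453, 141, 278 and 127 CPM and 1286, 537, 802 and 518 CPM, and were higher than in both pericyte groups. *Ppp1r14a*, which inhibits that phosphatase when phosphorylated, had 486, 694, 825 and 1055 CPM and was higher than in pericytes but not than in the narrower ones (201, 379 and 386 CPM). *Rock1*, a kinase that acts on the phosphatase, stood at 718, 574, 520 and 195 CPM against 400, 274 and 356 CPM, and was called higher than in pericytes but not than in these narrower ones. *Rhoa*, the small GTPase that switches these kinases on, had 409, 681, 533 and 576 CPM in the members and 395, 698 and 597 CPM in the narrower pericytes. Its levels in the 2 cell groups overlapped, and so did those of *Rock2*.

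**Figure D2:**
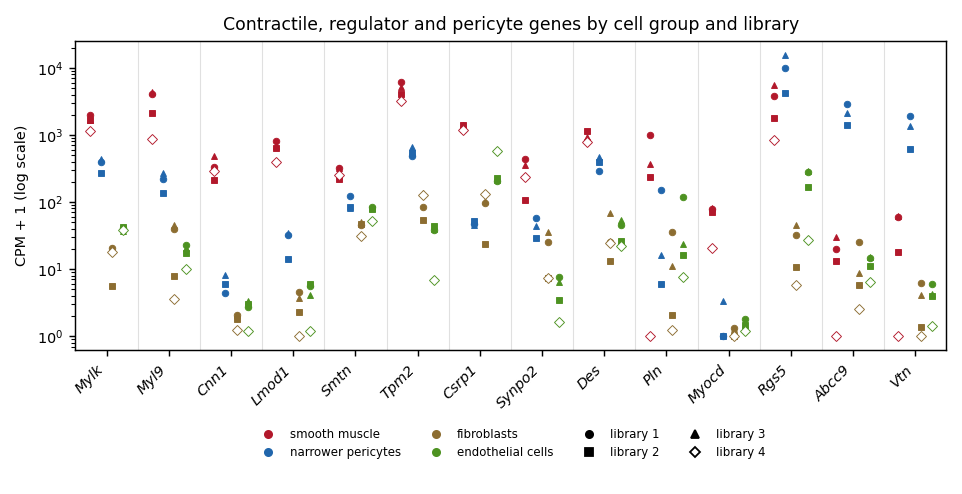
Levels (CPM + 1, log axis) of contractile genes, *Myocd* and pericyte genes in smooth muscle cells of libraries 1 to 4, narrower pericytes of libraries 1 to 3, and fibroblasts and endothelial cells of libraries 1 to 4; marker shape gives the library and open diamonds are library 4. *Mylk* to *Synpo2* lie above the narrower pericytes in every library, *Rgs5*, *Abcc9* and *Vtn* below them in each of libraries 1 to 3.

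The upstream sequences of contractile genes were searched for the CArG box, the element that serum response factor binds, since *Myocd* was found in the members. Every box found had the strict form of CC, then 6 letters of A or T, then GG, and elements that depart from it were not counted. That form is its own reverse complement, so a search on either strand gives the same places. Windows ran from 250 bases before to 50 after each gene start in RefSeq on GRCm38.p6. Of 31 contractile genes with a window, 6 held it (19.4%): *Fhl1*, *Filip1l*, *Ldb3*, *Myl6*, *Myl9* and *Vcl*. Over all 27025 genes 488 did (1.81%). None of 12 pericyte-list genes and 1 of 25 collagen and matrix genes (4%) held it. Of the genes of the member rule, *Acta2* had a window, which held no box of this strict form. Elements of a looser form were not looked for there. *Myh11* and *Tagln* were not in the table, nor was *Myocd*. A match is a description of letters and not a site shown to be bound. The 250 bases before the start are printed for *Myl9*, for *Filip1l*, an actin-filament-associated protein whose level was 860, 791, 674 and 860 CPM in libraries 1 to 4, and for *Ldb3*, a LIM protein of the sarcomere's Z disc (123, 33.5, 87.4 and 9.77 CPM), with the box in capitals. They lie at chr2:156775214-156775463 (plus strand), chr16:57548992-57549241 (plus strand) and chr14:34588608-34588857 (minus strand). The box starts 161, 62 and 109 bases before the RefSeq start used. For *Filip1l* that start lies inside the gene, which spans chr16:57353093-57573126 in GENCODE. RefSeq has another start for *Ldb3*, with the window before it at chr14:34588682-34588931, from which the same box lies 35 bases.
Myl9: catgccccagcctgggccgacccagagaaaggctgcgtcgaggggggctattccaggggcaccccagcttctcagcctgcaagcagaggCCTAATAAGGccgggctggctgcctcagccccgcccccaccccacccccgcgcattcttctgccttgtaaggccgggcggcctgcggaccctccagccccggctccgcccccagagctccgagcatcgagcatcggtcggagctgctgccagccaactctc
Filip1l: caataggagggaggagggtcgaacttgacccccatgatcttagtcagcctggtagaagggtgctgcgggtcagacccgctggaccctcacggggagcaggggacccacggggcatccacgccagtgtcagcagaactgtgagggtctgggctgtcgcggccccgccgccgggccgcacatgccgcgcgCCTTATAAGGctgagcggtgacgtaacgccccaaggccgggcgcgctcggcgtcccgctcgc
Ldb3: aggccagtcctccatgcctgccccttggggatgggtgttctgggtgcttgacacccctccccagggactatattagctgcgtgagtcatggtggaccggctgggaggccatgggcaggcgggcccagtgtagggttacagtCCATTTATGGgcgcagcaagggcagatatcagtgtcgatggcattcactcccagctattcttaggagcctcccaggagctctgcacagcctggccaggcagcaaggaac

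Transcription factors of the smooth muscle programme divided into genes shared with pericytes and genes that were not. *Myocd* (chr11:65176561-65269989, minus strand) had 78.0, 69.0, 81.8 and 19.5 CPM in libraries 1 to 4, while the narrower pericytes had 0, 0 and 2.37 CPM and the fibroblasts at most 0.302 CPM in libraries 1 to 3. Its partner *Srf* stood at 88.4, 88.8, 75.9 and 48.8 CPM in the members and 59.7, 41.2 and 36.8 CPM in those pericytes, and was not called. *Notch3*, the receptor through which endothelial ligands act on mural cells, had 602, 299, 747 and 313 CPM in the members, and each of libraries 1 to 3 was lower than its pericytes (876, 573 and 1201 CPM) though by less than 2-fold. *Heyl*, a Notch target, was high in libraries 3 and 4 (245 and 225 CPM) and low in libraries 1 and 2 (84.1 and 82.7 CPM). *Ebf1*, a factor of pericytes and adipocyte precursors, was lower in the members (505, 383 and 430.4 CPM against 1098, 979 and 1079.6 CPM in the narrower pericytes). *Tcf21*, of epicardial and fibroblast lineages, was lower too (30.8, 24.98 and 35.3 CPM against 98.9, 67.5 and 93.7 CPM). Of 24 regulators entered against the narrower pericytes, 2 were higher (*Myocd* and the flow-induced factor *Klf2*) and 3 lower (*Ebf1*, *Tcf21* and *Meis1*). Among all genes entered there, 4.19% were higher and 3.44% lower. With the marker doublets left out *Klf2* was no longer called, and *Nr4a1*, an early-induced nuclear receptor, was higher (1835, 1285.5 and 784 CPM against 866, 575 and 297 CPM).

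Genes of calcium handling separated the members from pericytes in part. *Pln*, phospholamban, which restrains the calcium pump of the sarcoplasmic reticulum, had 1006.5, 236, 367 and 0 CPM in libraries 1 to 4 against 150, 4.94 and 15.4 CPM in the narrower pericytes. Library 1 was the highest in both cell groups. Transcripts of the cardiomyocyte marker list also made up most there, with 0.0593, 0.00901, 0.0187 and 0.00195% of member UMIs, and their part in the level of *Pln* was not tested. *Kcnab1*, an accessory subunit of voltage-gated potassium channels, had 145, 140, 174 and 58.6 CPM against 5.11, 6.59 and 15.4 CPM. *Kcnmb1*, the calcium-sensing beta subunit of the large potassium channel, had 67.2, 65.1, 85.8 and 48.8 CPM against 27.3, 26.4 and 26.1 CPM. *Atp2b4*, a calcium pump of the plasma membrane, and *Cacna1h*, a T-type calcium channel, were likewise higher, at 323, 171, 268 and 127 CPM and at 74.6, 33.7, 65.6 and 39.1 CPM.

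*Cacna1c*, the L-type channel through which most of the calcium for contraction enters, had 79.3, 37.6, 76.2 and 29.3 CPM in the members and 66.5, 59.3 and 75.9 CPM in the narrower pericytes, and the groups overlapped. *Ano1*, a calcium-activated chloride channel, was lower in each of libraries 1 to 3 but by less than 2-fold, at 213, 61.0 and 145 CPM against 310.2, 110.4 and 248 CPM. Over the list, 8 of 20 genes entered were higher than in pericytes and 0 lower, 5 were higher and 1 lower against the narrower pericytes, and 17 were higher than in fibroblasts.

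The count for receptors and their signalling partners depended on the cells they were set beside. Against the narrower pericytes 3 of 20 entered genes were higher and 7 lower, against pericytes 4 were higher and 3 lower, and against fibroblasts 12 of 16 were higher and 1 lower. In the same order, the shares of all genes entered were 4.19 and 3.44%, 4.52 and 3.68%, and 8.93 and 4.57%. *Agtr1a*, the angiotensin II receptor, had 1.30, 0, 0.660 and 0 CPM in the members, a UMI in 5 of 690 cells, and 112, 102 and 48.6 CPM in the narrower pericytes. *Ednrb*, endothelin receptor B, had 42.5, 127, 43.5 and 518 CPM against 426, 1204 and 343 CPM. *Ednra*, endothelin receptor A, had 102, 50.7, 81.5 and 127 CPM against 234, 176 and 335 CPM. *Rgs5*, which shortens signalling by receptors coupled to G proteins, was abundant in the members at 3785, 1789, 5574 and 840.0 CPM but higher still in those pericytes, at 9984, 4262 and 15666 CPM.

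The genes of this list that were higher than in the narrower pericytes were *Ramp1*, *Olfr78* and *Pde3a*. *Ramp1*, which forms the receptor for the vasodilator CGRP together with *Calcrl*, had 234, 32.4, 226 and 39.1 CPM against 0, 0 and 7.12 CPM, with library 2 the lowest of libraries 1 to 3. *Olfr78*, an odorant receptor known from vascular smooth muscle, had 101, 12.9, 86.4 and 39.1 CPM against 3.41, 0 and 13.1 CPM. *Olfr558*, of the same family, had 326, 107, 400.4 and 381 CPM, and was higher than in pericytes but not than in the narrower ones (133, 54.4 and 259 CPM). *Pde3a*, a phosphodiesterase that breaks down cyclic AMP, had 475, 307, 419 and 332 CPM against 176, 114 and 200.5 CPM. The nitric oxide receptor subunits *Gucy1a1* (769, 186, 477 and 195 CPM) and *Gucy1b1* (464, 183, 388 and 244 CPM) and the kinase *Prkg1* downstream of them were not called against either pericyte group, and were higher than in fibroblasts.

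Genes of pericytes were low in the members, in part by choice of the groups. *Abcc9*, which joins the product of *Kcnj8* in a potassium channel, had 19.1, 12.1, 28.7 and 0 CPM against 2877, 1407 and 2149 CPM in the narrower pericytes, which had been chosen on it. *Vtn*, vitronectin, was not used in the choice and had 59.0, 16.99, 60.4 and 0 CPM against 1897, 624 and 1377 CPM. *Colec11*, a secreted collectin, had 46.0, 0.515, 39.3 and 19.5 CPM against 1779, 330 and 1851 CPM, and *Steap4*, a metalloreductase, 74.6, 44.0, 95.3 and 39.1 CPM against 1329, 1180 and 1504 CPM. *Pdgfrb*, the receptor that recruits mural cells to vessels, was present in both at 383, 342, 390.2 and 567 CPM against 2262, 1946 and 1915 CPM. *Cspg4* (223, 266, 325 and 234 CPM) and *Mcam* (414, 443, 618 and 264 CPM), often used as markers of pericytes, were not called against either group of them. Of 16 listed pericyte genes 9 were lower than in pericytes and 12 lower than in the narrower ones, and 9 of 13 were higher than in fibroblasts.

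**Figure D3:**
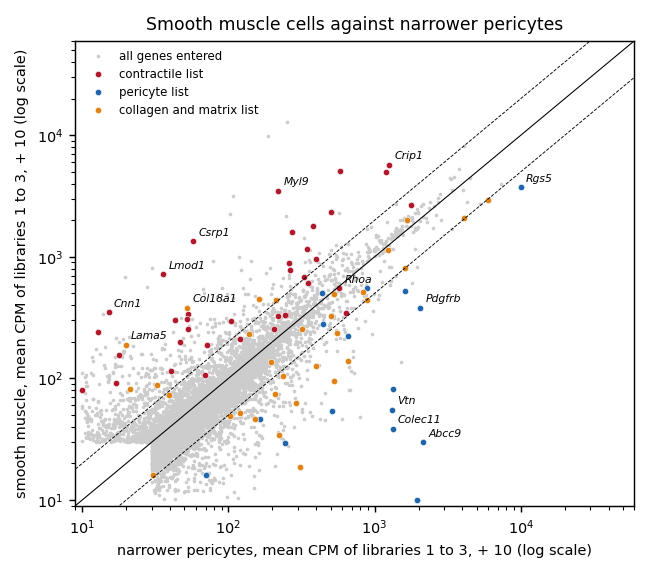
Mean level over libraries 1 to 3 (CPM + 10, log axes) of each entered gene in smooth muscle cells (vertical) against narrower pericytes (horizontal), with contractile, pericyte and collagen and matrix genes coloured, the solid line at equal levels and dashed lines at 2-fold. Contractile genes such as *Cnn1* and *Csrp1* lie above the upper line, *Abcc9* and *Vtn* below the lower one, and *Rhoa* near equality.

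Matrix genes set the members apart from fibroblasts and also varied between libraries. The list of 36 collagen and matrix genes held 0.965, 1.10, 2.09 and 2.26% of member UMIs in libraries 1 to 4, against 8.63, 2.53, 11.1 and 6.00% in fibroblasts. Without the marker doublets it held 0.806, 0.927, 1.76 and 0.741%, so that library 3 remained above libraries 1 and 2 while library 4, then 2 cells, did not. In fibroblasts 23 of 36 entered genes were higher than in the members and 3 lower. *Col1a1*, a chain of fibrillar collagen, had 208, 13.4, 511 and 527 CPM in the members against 5423, 458 and 8364 CPM in fibroblasts of libraries 1 to 3, and library 2 was the lowest in both. The fibroblasts had been chosen on *Col1a1*, so its gap follows in part from that choice. *Postn*, periostin, had 57.2, 2.58, 327 and 0 CPM in the members and 859, 360 and 4225 CPM in fibroblasts, with library 3 the highest in both. The fibroblast marker list held 0.163, 0.119, 0.262 and 0.332% of member UMIs, and its part in these levels was not tested.

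Against pericytes 2 of 36 entered genes of this list were higher and 17 lower, and against the narrower pericytes 2 of 32 were higher and 9 lower. Among all genes entered the shares were 4.52 and 3.68%, and 4.19 and 3.44%, so the count of higher genes was near that of all genes. The 2 higher genes belong to basement membranes. *Col18a1*, a collagen of vessel basement membranes, had 139, 384, 598 and 156 CPM against 5.11, 33.0 and 89.0 CPM in the narrower pericytes and 22.5, 7.04 and 29.3 CPM in fibroblasts. *Lama5*, a laminin chain, had 216, 139, 182 and 87.9 CPM against 13.6, 1.65 and 14.2 CPM. Both were higher than in pericytes, narrower pericytes and fibroblasts. *Col4a1*, the main collagen of basement membranes, did not follow them. It had 267, 1009, 1114 and 1280 CPM in the members against 411, 2186 and 2223 CPM in the narrower pericytes and 776.5, 1377 and 1770 CPM in fibroblasts. It was below both groups in each of libraries 1 to 3 but was not called. *Col4a2*, its partner chain, had 160, 563, 564 and 479 CPM against 264, 1165 and 1186 CPM in those pericytes and was not called either. Library 1 was the lowest for *Col4a1*, as it was in endothelial cells (961, 2576 and 2910 CPM in libraries 1 to 3). *Mgp*, an inhibitor of calcification, stood at 1395, 3720, 3599 and 5704 CPM in the members, at 5527, 2608 and 9857 CPM in the narrower pericytes and at 18077, 5196 and 21793 CPM in fibroblasts, and was not called.

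Elastic fibre genes were mixed. *Lox*, which crosslinks elastin and collagen, had 51.6, 108, 130 and 78.1 CPM and was higher than in the narrower pericytes (3.41, 6.59 and 22.5 CPM), also without the marker doublets. *Eln*, elastin itself, had 91.9, 199.5, 280 and 58.6 CPM, and 39.8, 115 and 248 CPM in libraries 1 to 3 without the marker doublets. *Fbln5*, a fibulin of elastic fibres, had 80.6, 208 and 184 CPM with them and 2.52, 2.57 and 14.9 CPM without them, and was then no longer entered. The call of *Eln* against the narrower pericytes was also lost by that step. *Ltbp4*, which binds latent TGF-beta, had 203, 124, 427 and 0 CPM and was lower than in pericytes and fibroblasts. In all, 4 of 15 elastic fibre genes were higher and 3 lower against the narrower pericytes, and 1 of 13 was higher and 4 lower with the marker doublets left out. The shares of all genes entered were 4.19 and 3.44%, and 4.01 and 5.49% with the marker doublets left out.

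Genes linked to the change of smooth muscle cells to a matrix-making, dividing state were examined next. Of 23 entered against pericytes 1 was higher and 5 lower, and of 19 against the narrower pericytes 1 was higher, *Ly6a*, and 0 lower. Among all genes entered, 4.52% were higher and 3.68% lower against pericytes, and 4.19 and 3.44% against the narrower ones. The counts of higher genes were thus near the share of all genes. *Ly6a*, an endothelial and stem cell antigen, was lower with the marker doublets left out. *Spp1*, osteopontin, had 13.4, 30.1, 34.6 and 0 CPM in the members, and *Klf4*, a factor that represses contractile genes and is also induced early in dissociated cells, had 1157, 927, 618 and 225 CPM. *Vim*, vimentin, had 1750, 2399, 4013 and 2715 CPM. A pair of matricellular genes were highest in libraries 2 and 4. *Thbs1*, a thrombospondin, had 630, 1564, 619 and 1836 CPM, and *Ctgf*, a connective tissue growth factor, 106, 2136, 332 and 869 CPM. Without the marker doublets *Ctgf* stood at 120.5, 2882, 304 and 3025 CPM and *Thbs1* at 740.1, 2083, 839 and 155 CPM, so that library 4, then 2 cells, was the lowest for *Thbs1*.

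Across libraries 1 to 3 the highest level was at least 2-fold the lowest for 169 of 316 listed genes at 20 CPM or more (53.5%), against 791 of 6348 genes in all (12.5%). The lists differed: it was 25 of 30 collagen and matrix genes, 12 of 14 elastic fibre genes, and 14 of 37 contractile genes. These spreads are between libraries whose grafts are unknown and have no replicates, so they were not tested. The lists were chosen with earlier results of these data known. They also hold markers of other cell types, such as the fibroblast markers (6 of 8). The gap between listed genes and all genes is therefore only a description of the lists.

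Inflammatory genes of the members were likewise uneven. *Cxcl1*, which draws neutrophils, had 509, 2224, 721 and 1260.0 CPM, *Ccl2*, which draws monocytes, 69.4, 404, 134 and 2461 CPM, and *Il6* 92.8, 258, 311 and 459 CPM. Without the marker doublets *Ccl2* had 14.5, 222, 188 and 77.6 CPM and *Il6* 68.1, 309, 342 and 77.6 CPM, so library 4, then 2 cells, was no longer the highest. The whole list held 0.629, 1.10, 0.614 and 1.16% of member UMIs, and 0.556, 0.988, 0.615 and 0.237% without the marker doublets. Of 25 chemokine and adhesion genes entered, 0 were higher and 8 lower than in pericytes, while 3 of 25 were lower than in the narrower pericytes and 5 of 24 with the marker doublets left out. Against fibroblasts 9 of 26 were lower. *Icam1*, which binds leukocytes, had 173, 485, 153 and 156 CPM in the members and 23.98, 30.4 and 38.95 CPM in libraries 1 to 3 without the marker doublets, beside 698, 1226 and 897 CPM in endothelial cells.

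Library 4 stood apart in genes induced by interferon and in antigen presentation. The list of 47 such genes held 0.550, 0.490, 0.494 and 4.72% of member UMIs in libraries 1 to 4, and 0.320, 0.392, 0.384 and 4.24% without the marker doublets. The same library was the highest in the other cell groups as well, with 7.06% in the narrower pericytes, 4.77% in fibroblasts and 6.91% in endothelial cells, against 0.748 to 0.964%, 0.443 to 0.979% and 0.986 to 2.14% in libraries 1 to 3. In libraries 1 to 3 endothelial cells had the highest share of these groups in each library. The members of library 4 are 5 cells with 107774 UMIs, so that their values are a description of those cells.

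*B2m*, the light chain of MHC class I, had 401, 273, 439 and 6192 CPM in the members. *H2-K1*, a class I heavy chain, had 436, 323, 313 and 3809 CPM. In single cells of library 4 *B2m* gave 274, 126, 89, 83 and 62 UMIs at depths of 28667, 26033, 25414, 15735 and 11925 UMIs, so it was high in all 5. *Gbp4*, a guanylate-binding protein induced by interferon gamma, had 22.5, 5.66, 8.58 and 2598 CPM, with 68, 110, 19, 26 and 43 UMIs in the 5 cells. *Gbp2b*, of the same family, had 0 UMIs in libraries 1 to 3 and 1992 CPM in library 4. The chemokine *Cxcl9* had 22.5, 0.258, 2.31 and 176 CPM in the members, and 11 of its 18 UMIs in library 4 lay in 1 cell, while in library 4 endothelial cells had 10020.0 CPM and narrower pericytes 3898 CPM, and *Ubd*, a ubiquitin-like protein, had 0 CPM in the members of library 4 and 1686 CPM in its endothelial cells.

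MHC class II genes were low outside library 4. The list of 8 genes held 0.0121, 0.00162, 0.0152 and 0.315% of member UMIs, against 3.29, 0.188, 1.95 and 2.85% in leukocytes. In library 4 it held 0.121% in the narrower pericytes, 0.294% in fibroblasts and 0.372% in endothelial cells. That library was the highest in each of these groups too, so the rise was not particular to the members. *Cd74*, the invariant chain, gave 20, 78, 19, 10 and 18 UMIs in the 5 cells of library 4 and *H2-Ab1* 14, 39, 20, 3 and 5. *Lyz2*, a macrophage and neutrophil gene, gave 6, 4, 1, 7 and 3 UMIs, *Cd3e* of T cells 0 and *Cdh5* 0 in each. By leukocyte markers 3 of these cells were marker doublets. The leukocyte list held 0.0479% of member UMIs in library 4 and 1.69% of the UMIs of its leukocytes, and its part in the class II levels was not tested. A single cell of the 5 held all 222 UMIs of *Dcn* and all 54 of *Col1a1*, with 10 of *Mylk*.

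**Figure D4:**
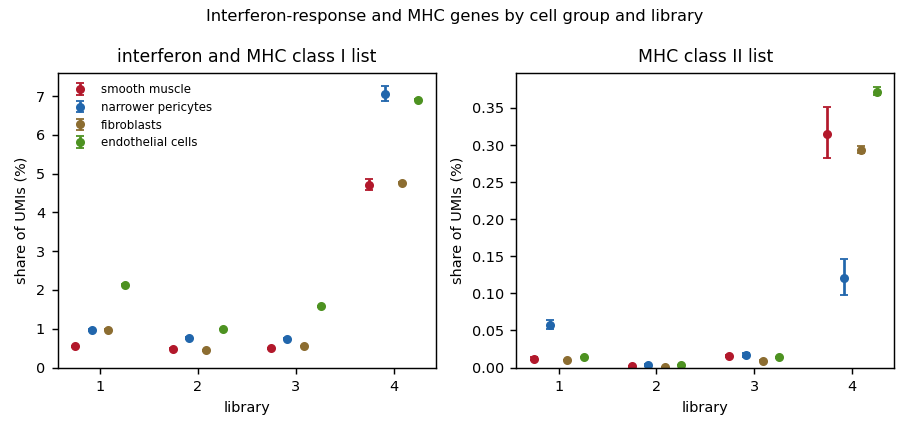
Percent of non-mitochondrial UMIs from the interferon and MHC class I list (left) and the MHC class II list (right) in smooth muscle cells, narrower pericytes, fibroblasts and endothelial cells by library, with 95% intervals. Library 4 is the highest in each group for the interferon list, with 4.72% in smooth muscle cells against 0.490 to 0.550% in libraries 1 to 3.

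Counted over genes that reached 100 CPM in at least 1 library, library 4 was at least 2-fold above the highest of the other libraries for 214 of 2112 genes (10.1%) and at least 2-fold under the lowest for 170 (8.05%). A gene could qualify through library 4 alone or through another library alone, so these counts are descriptions and were not tested. In the interferon list 31 of 37 such genes were above and 0 under. The 4 class II genes that qualified were all above. The most abundant of them, *Cd74*, averaged 37.8 CPM over libraries 1 to 3 and had 1416 CPM in library 4, through which it qualified. Of 34 contractile genes 0 were above and 3 under, and 9 of 17 immediate early genes were under. All 8 endothelial markers that qualified were under, and of 18 chemokine and adhesion genes 7 were above and 1 under.

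Members varied widely among themselves. The contractile list, without the rule genes, gave a median of 3.87% of a cell's UMIs, with quartiles of 2.77 and 5.23% and a range from 0.524 to 9.86%. Medians by library were 3.91, 3.75, 4.28 and 2.01%. Some genes were carried by few cells. The 69 members with the highest level of *Actg2* held 73.7% of its UMIs and 13.3% of all UMIs, and 30.4% of members had a UMI of it. For *Cnn1* the top 69 held 50.5% of its UMIs and for *Mylk* 20.6%. For *Dcn* the share was 89.2%, for *Fbln5* 83.6%, for *Eln* 66.5% and for *Ctgf* 66.0%. Of the 69 cells highest in *Ctgf*, 66 came from library 2. The median member had 0 CPM of *Actg2*, *Eln* and *Fbln5*.

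**Figure D5:**
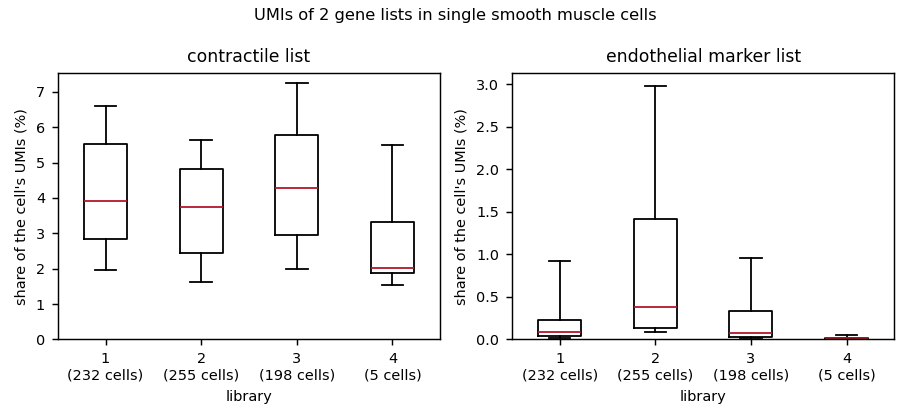
Percent of each cell's UMIs from the contractile list (left) and the endothelial marker list (right) by library, with a line at the median, boxes from the lower to the upper quartile and whiskers from the 10th to the 90th percentile of cells. The contractile medians are 3.91, 3.75, 4.28 and 2.01% and the endothelial medians 0.0843, 0.379, 0.0753 and 0.0160%.

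Within a library, the share of contractile transcripts was ranked against other shares over the cells (232, 255 and 198 cells in libraries 1 to 3). Shares of one cell share its total, so these correlations are given as a description. Spearman's rho with the interferon list was -0.69, -0.54 and -0.64, and -0.57, -0.24 and -0.50 without the marker doublets. With the endothelial markers it was -0.65, -0.63 and -0.64, with ribosomal protein genes -0.54, -0.31 and -0.45, and with the percent of mitochondrial UMIs 0.70, 0.54 and 0.50. Without the marker doublets these were -0.60, -0.39 and -0.58 for the endothelial markers, -0.59, -0.36 and -0.34 for ribosomal protein genes and 0.58, 0.25 and 0.29 for mitochondrial UMIs. For these 4 measures the signs were the same with and without those cells. They were not for the elastic fibre list, the collagen and matrix list, depth, the fibroblast markers and the stress, hypoxia and metallothionein list. The fibroblast markers changed sign in library 1 (0.02, and -0.14 without the marker doublets). The stress list did so in library 3 (0.27 and -0.04). With the elastic fibre list rho was -0.13, -0.21 and -0.24, and 0.28, 0.17 and 0.25 without the marker doublets. With the collagen and matrix list it was 0.37, -0.26 and 0.06, and 0.54, 0.07 and 0.12 without them. With a cell's depth it was 0.14, -0.31 and 0.03, and 0.61, 0.19 and 0.43 without them. With the list of the switched state rho was 0.48, 0.49 and 0.40, and 0.68, 0.43 and 0.61 without the marker doublets, a list in which *Actb* is the most abundant gene.

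Dividing cells were looked for with 10 mitotic genes. At least 5 of their UMIs were found in 0 of 232 members of library 1, which allows a share of up to 1.29% by the limit of 3 cells (exact upper bound 1.58%), in 0 of 255 in library 2 (up to 1.18%, exact 1.44%), in 9 of 198 in library 3 (4.55%, 2.10 to 8.45) and in 0 of 5 in library 4 (up to 60.0%, exact 52.2%). Without the marker doublets it was 6 of 136 in library 3. *Ube2c*, which acts at the exit from mitosis, had 1.73, 0.515, 129 and 0 CPM, and *Mki67*, the usual marker of division, 0.434, 0.515, 52.4 and 0 CPM. In endothelial cells the shares were 0.321, 0.180, 5.90 and 0.503%, so library 3 was the highest there as well. No member was called cycling from a phase score.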

How the data were processed

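Single cells of 4 grafts were profiled with the 10x 3′ v3 kit. Per the study's methods, the authors ran Cell Ranger 3.0.0 on mm10 with Ensembl 92, and the submitters' processing notes also name CASAVA 1.8 and Seurat. The deposited matrix holds raw UMI counts of 30905 genes in 53824 cells, as 1 pooled table, with library totals of 96020294, 115162601, 138892048 and 166079145 UMIs. No normalized values were used.

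Members, comparison groups and gene lists were chosen with earlier results of these data known. Of the list names 425 were found and 3 were not. Counts were summed by group and library and scaled to the non-mitochondrial total. No doublet caller was run, and marker doublets were handled as an alternative. Named genes were those of the lists, up to 12 each way with the largest smallest fold, the 15 most abundant, and up to 5 each way per library. The promoter search used RefSeq windows. Some listed genes are not reported here.

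The libraries, of unknown graft, were not used as replicates of a condition. Contrasts between cell groups, which the groups' own genes had chosen, were described by their folds within libraries and were not tested, and intervals cover counting error only. The fold calls were tested on simulated data for smooth muscle against pericytes, where 200 of 200 genes changed 4-fold were recovered and 0 of 6249 unchanged genes were called. The simulation held 6449 genes and counting error only, and a 4-fold change is well past the limit of 2-fold. Intervals came from scipy 1.17.1, sums from numpy 2.4.6 and pandas 2.3.3, and plots from matplotlib 3.10.9, under Python 3.11.15.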

Additional observations from a re-analysis of the deposited data

How the results depend on the processing

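No paired analysis was possible because the libraries are not tied to grafts or to replicate numbers, which bars any pairing of allogeneic with syngeneic grafts; cell groups were compared within libraries. Of 117 values under alternatives, 75 stayed within the limits set and 42 moved. The median contractile log2 fold (2.20), the only value that could change sign, ranged from 1.81 to 2.50. The share of kept cells (1.55%) was 0.770% with mitochondrial UMIs under 10%, 1.26 and 1.73% with the member limits doubled and halved, 1.80% with *Kcnj8* allowed, 1.10% without marker doublets, and 1.34 to 2.06% leaving out each library in turn, highest without library 4. Genes higher than in pericytes (334) numbered 197 at a minimum of 100 CPM and 526 with cells pooled over libraries, and 334 to 452 leaving out each library. Genes lower than in pericytes (272) numbered 411 without marker doublets, 432 with 1 CPM added, 145 at 100 CPM, 626 pooled, and 272 to 457 leaving out each library, most without library 2. Against fibroblasts, higher genes (645) numbered 351 at 100 CPM and 645 to 806 leaving out each library, and lower genes (330) 508 with 1 CPM added, 213 at 100 CPM, 723 pooled and 330 to 573 leaving out each library, most without library 2. The interferon share of libraries 1, 2 and 3 (0.550, 0.490 and 0.494%) was 1.01, 0.568 and 0.568% with mitochondrial UMIs under 10%, 0.471, 0.478 and 0.469% with doubled limits, 0.611, 0.499 and 0.506% with halved limits, 0.647, 0.508 and 0.584% with *Kcnj8* allowed, 0.320, 0.392 and 0.384% without marker doublets, and 0.564, 0.502 and 0.510% with the rule genes left out of the total. In library 4 (4.72%) it was 4.92% with *Kcnj8* allowed and 4.24% without marker doublets. The median share of members with a UMI was 90.9%, and 41.8% after thinning, over a set of genes narrower than the lists as a whole. Many listed genes lay well below it, such as *Cnn1* at 52.5%. The causes were not tested. The narrower pericytes, alone and without marker doublets, were alternatives chosen after seeing the data.

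The number of libraries, their unknown grafts, and the 5 cells of library 4 limit these values. Levels under about 10 CPM rest on few UMIs.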

Other observations

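Several genes marked a single library among the members. *Dbp*, a factor under clock control, had 261, 22.4, 46.5 and 39.1 CPM in libraries 1 to 4, and 682, 42.8, 61.7 and 36.5 CPM in the narrower pericytes, with library 1 the highest in both. The cardiac muscle genes *Tcap* (225, 17.3, 44.5 and 9.77 CPM) and *Myl2* (137, 13.7, 26.7 and 0 CPM) and the haemoglobin gene *Hbb-bs* (168, 49.4, 26.4 and 0 CPM) were highest there too. In library 2 the neutrophil genes *S100a8* and *S100a9* had 524 and 508 CPM in the members, against at most 13.4 CPM in the other libraries. Over all other kept cells *S100a8* had 401, 11283, 263 and 349 CPM, so that library 2 was the highest in both. *Igfbp5*, a binding protein of insulin-like growth factors, was lowest in library 2, at 836, 70.8, 825 and 234 CPM. *Rpl29*, a ribosomal protein gene, had 865, 1080 and 960 CPM in libraries 1 to 3 and 19.5 CPM in library 4, and the endothelial cells of that library had 60.3 CPM of it, against 1133 to 1462 CPM in the others. Over all other kept cells *Rpl29* had 1115.7, 1352.1, 1305.0 and 974.8 CPM in libraries 1 to 4. *Trf*, transferrin, had 11.7, 4.12, 7.59 and 1201 CPM in the members, while endothelial cells of library 4 had 3.51 CPM.

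Of 18 stress, hypoxia and metallothionein genes entered, 3 were higher than in the narrower pericytes and 1 lower, and the 3 were the small heat shock genes *Hspb1*, *Hspb6* and *Hspb7*. *Hspb1* had 1180, 4399, 1272 and 498 CPM, highest in library 2, and *Hspb6*, which is known to aid relaxation of smooth muscle, had 112, 84.5, 86.4 and 58.6 CPM against 13.6, 6.59 and 5.93 CPM in the narrower pericytes of libraries 1 to 3. *Hspb1*, *Hspb6* and *Hspb7* were each higher than in pericytes, narrower pericytes and fibroblasts. The related *Cryab* (241, 389, 358 and 420.0 CPM against 128, 49.4 and 170 CPM) and *Hspb8* (18.6, 38.4, 28.4 and 48.8 CPM against 34.1, 44.5 and 48.6 CPM) were not called against the narrower pericytes, though *Cryab* was higher with the marker doublets left out. The metallothionein *Mt1*, induced by metals and glucocorticoids, had 3042, 3733, 1358 and 1416 CPM. Among growth factor genes, *Pdgfa* had 204, 712, 308 and 479 CPM in the members against 30.95, 16.8 and 38.3 CPM in fibroblasts of libraries 1 to 3, and *Fgfr1*, a receptor of fibroblast growth factors, 206, 156, 167 and 107 CPM against 17.04, 8.24 and 11.9 CPM in the narrower pericytes. Against the latter, 5 of 27 growth factor genes were higher and 1 lower, and 3 of 24 were higher and 1 lower with the marker doublets left out. The shares of all genes entered were 4.19 and 3.44%, and 4.01 and 5.49% with the marker doublets left out.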
